A study of Homo sapiens with 22 samples.

Results

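The clones compared here were derived from a line labelled HEK28, an embryonic kidney line by its tissue label, and carried coagulation factor VIII either without its B domain (BDD, clones 1 and 12) or at full length (FL, clones 4, 7, 9 and 10). They were chosen on F8 RNA: BDD clones 1 and 12 are those whose mean F8 level fell within the range of the FL clones, so that the 2 constructs could be set side by side at a similar F8 RNA count. These clones account for 12 of the 22 libraries and 6 of the 11 clones or lines of the series, with libraries a and b for each clone, averaged so that n counts clones. The series asks how removal of the B domain bears on secretion of factor VIII. No clone was treated, and total RNA came from pelleted cells grown in 6-well plates. The other 4 BDD clones (2, 7, 13 and 27) carry the same genotype label with less F8 RNA, and a line titled HEK 28 carries the full-length label. The labels do not give the promoter that drives the transgene, nor whether clones arose from separate transfections or libraries a and b from separate cultures, so p-values measure the spread between these clones only. In RNA from whole cultures, fewer cells that express a gene and less RNA per cell cannot be told apart.

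Factor VIII is a large secreted glycoprotein and the cofactor of factor IXa in blood clotting. It folds in the endoplasmic reticulum (ER) with the help of the chaperone BiP (HSPA5) and of lectins that read N-linked sugars, many of which sit on the B domain, and it leaves the ER bound to the cargo receptor formed by LMAN1 and MCFD2. The B domain is removed on activation and is not needed for clotting activity. A protein that folds poorly in the ER can set off stress signalling, in which the factors ATF4, DDIT3 and spliced XBP1 raise the RNA of chaperones, amino acid enzymes and secreted stress hormones.

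F8, the transgene together with any reads from the native gene on chromosome X, chose the clones and is described without a test. Levels are given as log2 CPM (reads of a gene scaled to library size) as deposited, in which a gene with no read stands at -1.45. Libraries a and b held 7.67 and 7.80 in BDD clone 1 and 7.57 and 7.30 in BDD clone 12. The clone means were 7.74 and 7.43 in BDD clones 1 and 12, and 7.87, 7.11, 7.42 and 7.79 in FL clones 4, 7, 9 and 10. The nearest BDD clone outside the range was clone 2 at 6.19, and clones 27, 7 and 13 stood at 5.45, 3.75 and 2.10. BDD clones 1 and 12 thus held 1.14 and 0.925 times the geometric mean of the FL clones. These values are not divided by transcript length, and the BDD message is the shorter one.

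The 22 libraries held between 4951081 and 6197084 reads assigned to genes. Of the 6 clones, libraries a and b differed most in BDD clone 12, by a root mean square of 0.61 on the log2 scale against 0.38 to 0.49 in the FL clones and 0.42 in BDD clone 1. FL clone 7 stood apart from the other FL clones, with 485 to 803 of 11589 genes of at least 2 log2 CPM at least 2-fold away from each of them, where FL clones 4 and 10 were apart in 148. BDD clones 1 and 12 were apart in 185 such genes, and a BDD and an FL clone in 787 to 1871. The renal and developmental marker list had 15 of its 20 genes in the table, and NEFM, a neurofilament subunit, stood at a mean of 12.04 in the FL clones. PAX8, CDH6, KRT19 and PROM1 were among those not analysed here.

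BDD clones 1 and 12 differed from the FL clones in 2595 of 15776 genes tested (16.4%) at an adjusted p below 0.05, by limma's moderated test on clone means. Of these, 1166 (7.39%) were higher and 1429 (9.06%) lower, and 801 (5.08%) and 389 (2.47%) of them by at least 2-fold. With BDD clone 1 left out 301 genes were called, and with BDD clone 12 left out 263, in fits that take the lone BDD clone to vary as the FL clones do. Without FL clone 9 the count was 1284. The direction followed the level of the gene: below 1 log2 CPM 238 of 2528 genes were called higher and 31 lower, while at 6 log2 CPM or above 110 of 2579 were higher and 559 lower. The plot of level against difference shows all genes tested. Counts of called genes in the lists below are to be read beside these shares, over all genes and by level.

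**Figure D1:**
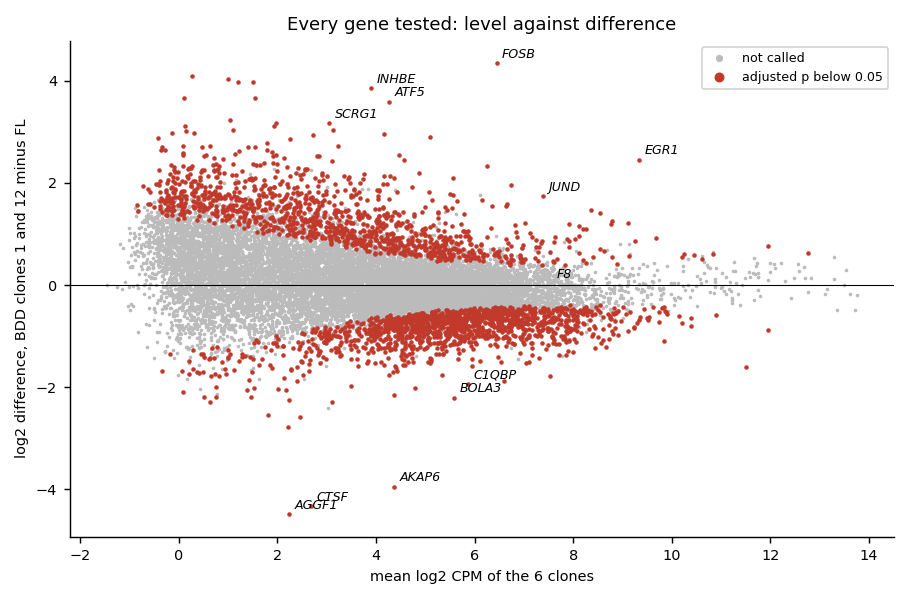
Each point is 1 of the 15776 genes tested, with its mean log2 CPM over the 6 clones on the horizontal axis and the log2 difference of BDD clones 1 and 12 minus the FL clones on the vertical axis; red marks an adjusted p below 0.05. FOSB lies at 4.34 and AGGF1 at -4.48, while F8, which chose the clones, lies near 0.

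The immediate early genes, transcription factors and signalling genes whose RNA is made within minutes of a stimulus, had the largest number of higher genes of any list: 16 of the 25 measured were called higher and none lower, with a median difference of 1.41 on the log2 scale where the median of all genes tested was 0.02. The list medians were 1.49 in clone 1 and 1.46 in clone 12, against -0.25 to 0.21 in single FL clones. Leaving out BDD clone 1, 10 of the 25 were called, and leaving out BDD clone 12, 9. Promoter sequence of 5 of the called genes of this group and of its feedback arm is shown because these genes were all called higher. It is taken from RefSeq for GRCh38.p14, as the 250 bases before the transcription start, read 5′ to 3′ on the strand of the gene. Capitals mark the CArG box, the core of the serum response element bound by SRF, and the cyclic AMP response element TGACGTCA with its shorter form TGACG, searched on both strands and allowed to overlap. EGR1 lies at chr5:138465229-138465478 on the plus strand, FOS at chr14:75278578-75278827 on the plus strand and FOSB at chr19:45467746-45467995 on the plus strand. JUND lies at chr19:18281623-18281872 and DUSP1 at chr5:172771196-172771445, both on the minus strand.
EGR1: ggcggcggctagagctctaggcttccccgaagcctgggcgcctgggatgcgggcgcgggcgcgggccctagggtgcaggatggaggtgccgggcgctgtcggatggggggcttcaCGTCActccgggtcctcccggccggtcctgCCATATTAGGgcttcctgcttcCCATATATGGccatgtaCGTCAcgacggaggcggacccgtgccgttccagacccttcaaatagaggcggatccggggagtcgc
FOS: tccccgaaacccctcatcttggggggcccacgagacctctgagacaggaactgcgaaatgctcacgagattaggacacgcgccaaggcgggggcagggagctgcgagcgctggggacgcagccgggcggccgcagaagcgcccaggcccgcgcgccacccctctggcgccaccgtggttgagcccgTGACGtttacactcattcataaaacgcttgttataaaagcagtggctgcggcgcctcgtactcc
FOSB: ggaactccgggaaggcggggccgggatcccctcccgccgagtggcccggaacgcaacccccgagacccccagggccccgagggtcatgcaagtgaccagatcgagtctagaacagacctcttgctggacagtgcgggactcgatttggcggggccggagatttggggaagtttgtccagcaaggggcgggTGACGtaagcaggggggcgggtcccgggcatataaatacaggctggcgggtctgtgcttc
JUND: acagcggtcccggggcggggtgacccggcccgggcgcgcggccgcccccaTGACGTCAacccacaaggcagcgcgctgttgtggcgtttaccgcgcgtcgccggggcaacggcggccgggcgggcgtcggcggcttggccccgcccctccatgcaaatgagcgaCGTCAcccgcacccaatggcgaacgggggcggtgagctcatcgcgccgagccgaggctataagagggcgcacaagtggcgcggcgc
DUSP1: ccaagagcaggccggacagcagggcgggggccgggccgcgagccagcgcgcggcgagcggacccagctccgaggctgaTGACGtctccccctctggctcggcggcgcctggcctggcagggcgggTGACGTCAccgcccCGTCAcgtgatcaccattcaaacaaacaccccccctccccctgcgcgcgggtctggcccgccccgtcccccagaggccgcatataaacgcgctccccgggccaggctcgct

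In these windows the CArG box occurred 2 times in EGR1 and in none of the other 4, and TGACGTCA occurred 1 time each in JUND and DUSP1. TGACG, on either strand, occurred 2 times in EGR1, 1 time in FOS, 1 time in FOSB, 3 times in JUND and 4 times in DUSP1. Among all 35116 promoters of the table, cut to the same length, 1.16% held a CArG box, 1.65% held TGACGTCA and 21.2% held TGACG. Among the 11209 genes tested that have a promoter there, the shares were 1.54%, 3.4% and 35.2%. Of the immediate early genes called higher, 13 had a promoter in the table, and 2 of them held a CArG box, 1 held TGACGTCA and 9 held TGACG. Of all immediate early genes tested, called or not, 18 had a promoter there. A CArG box was held by 3 of these (16.7%), TGACGTCA by 1 and TGACG by 13 (72.2%), against 15.4% and 69.2% of the called ones for CArG and TGACG. A match of letters is a description of the window and not evidence of binding.

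FOSB, a subunit of the AP-1 factor, had the highest difference of the genes that met the naming rule. Its level was 9.24 in BDD clone 1 and 9.44 in BDD clone 12, against 5.23, 5.51, 4.58 and 4.68 in FL clones 4, 7, 9 and 10. The groups were more than 3 log2 units apart, a difference of 4.34 (SE 0.24, 20.3-fold, adjusted p = 3.72e-05). FOS, its close relative, stood at 7.06 and 7.01 against 4.40, 3.85, 4.64 and 3.67, and JUND, a partner of both, at 8.62 and 8.48 against 6.84, 6.63, 7.00 and 6.77. FOS was 7.43-fold (adjusted p = 0.000426) and JUND 3.33-fold higher (adjusted p = 0.000252), with no overlap of clones. Clone means did not overlap between the groups in 43.7% of all genes, and in 21 of the 25 genes of this list.

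EGR1, a zinc finger factor induced by ERK signalling, was the most abundant of the EGR genes. It stood at 11.01 and 10.93 in BDD clones 1 and 12 and at 8.79, 8.57, 8.65 and 8.04 in the FL clones, 5.50-fold higher (adjusted p = 0.000252). EGR3 was at 4.72 and 4.67 against 1.49, 1.99, 1.90 and 1.63, 7.69-fold higher (adjusted p = 0.000426). ARC, which binds the cytoskeleton at synapses and is a classic early gene of neurons, was at 5.84 and 6.46 against 3.87, 2.26, 2.73 and 3.88, 7.80-fold higher (adjusted p = 0.00299). FOSB, FOS, JUND, EGR1 and EGR3 passed the threshold in each of the 6 fits that left out 1 clone, and ARC in 5 of them, with an adjusted p of 0.0631 without BDD clone 12. MYC, KLF6 and SRF, the 3 members below the FL mean, differed by -0.78, -0.25 and -0.19 and did not pass the test, and were picked out after their values were seen.

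**Figure D2:**
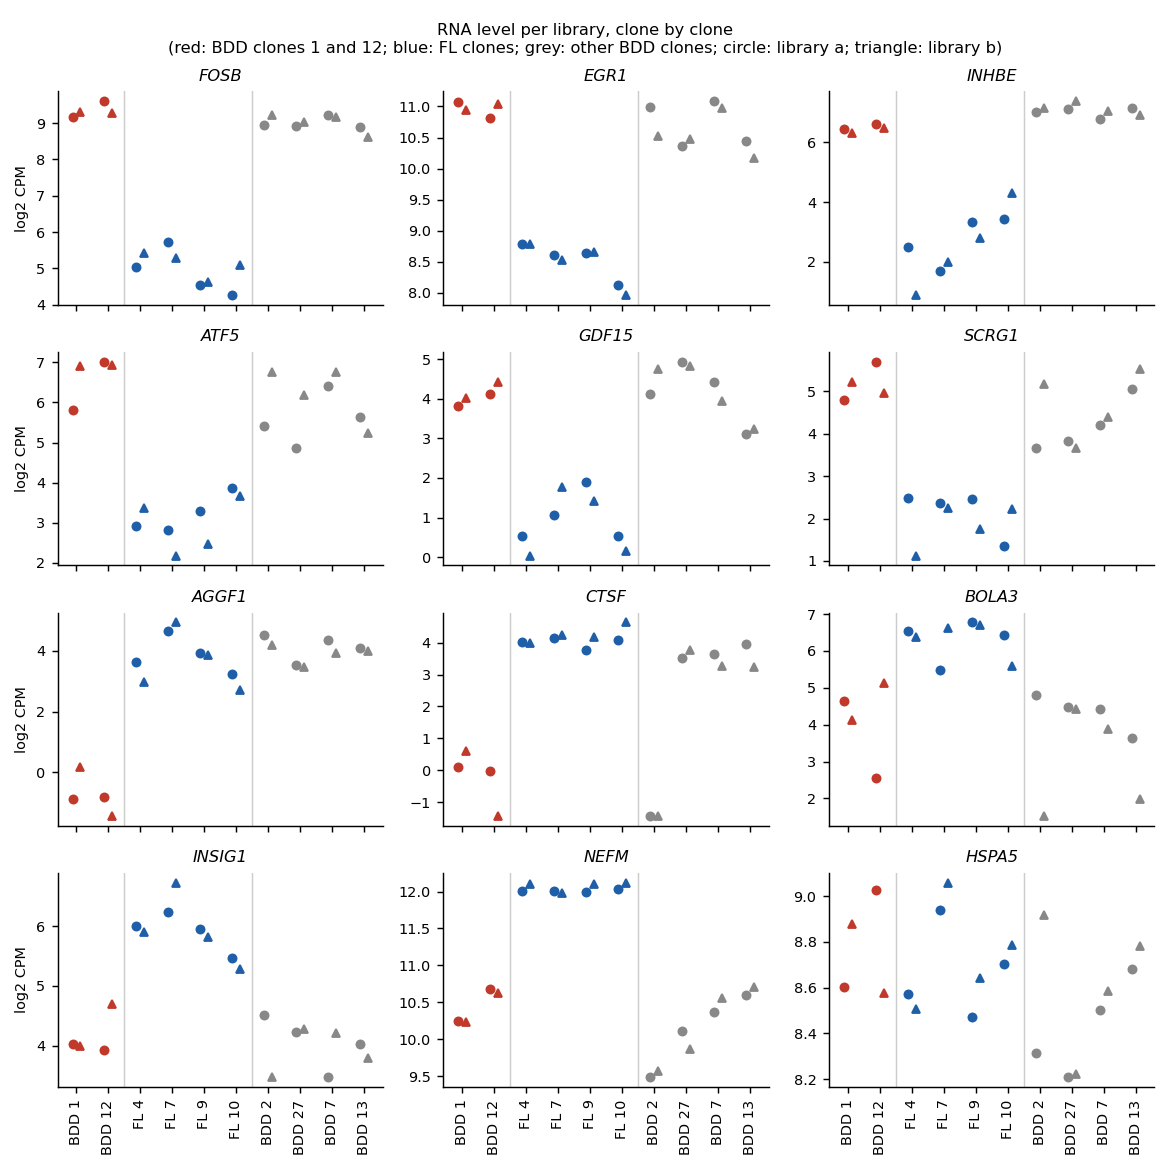
Points give log2 CPM of 12 genes in each library, by clone on the horizontal axis, with library a as circles and library b as triangles, BDD clones 1 and 12 in red, FL clones in blue and the other BDD clones in grey. FOSB in BDD clones 1 and 12 lies above 9 and in the FL clones below 6, while HSPA5 overlaps between the groups.

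The phosphatase DUSP1, an early gene whose product switches off MAP kinases, was at 6.35 and 6.25 in BDD clones 1 and 12 and at 4.17, 4.72, 4.66 and 4.33 in the FL clones, 3.55-fold higher (adjusted p = 0.000953, and 0.0293 and 0.0369 without BDD clone 1 and without BDD clone 12). DUSP5, a phosphatase of ERK in the nucleus, was 2.93-fold higher (adjusted p = 0.0132), and CCND1, cyclin D1, was lower by 1.25 (adjusted p = 0.0162). Neither of the latter 2 passed without BDD clone 1 (0.101 and 0.148) or without BDD clone 12 (0.125 and 0.0974). These were the 3 called of 13 measured in the list of ERK feedback inhibitors, with a list median of 0.51. CCND1, the one lower, drives the cell cycle and is a target of ERK signalling, not an inhibitor of it. The list median was 0.22 in BDD clone 1, within the range of single FL clones (-0.28 to 0.25), and 0.79 in BDD clone 12.

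The integrated stress response, the programme through which phosphorylation of eIF2 and translation of ATF4 raise amino acid enzymes and stress hormones, was called higher in 11 of 36 measured genes and lower in 1, with a median of 0.40. Its highest members were INHBE, ATF5 and GDF15. INHBE, a secreted inhibin subunit, stood at 6.39 and 6.56 in BDD clones 1 and 12 and at 1.69, 1.84, 3.07 and 3.87 in FL clones 4, 7, 9 and 10, 14.5-fold higher (adjusted p = 0.00209). ATF5, a transcription factor of the ATF4 family, was at 6.35 and 6.97 against 3.14, 2.50, 2.88 and 3.77, 12.0-fold higher (adjusted p = 0.000426). GDF15, a secreted stress hormone and also a p53 target, was at 3.92 and 4.28 against 0.29, 1.41, 1.66 and 0.35, 8.99-fold higher (adjusted p = 0.00249). INHBE and ATF5 passed without any 1 of the 6 clones, and GDF15 missed once, at 0.0545 without BDD clone 12.

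In the same list, DDIT3 (CHOP), which favours cell death under lasting ER stress, was at 5.11 and 4.98 against 3.08, 3.89, 3.95 and 3.31, 2.80-fold higher (adjusted p = 0.00666). Left with 1 BDD clone it did not pass (0.0874 without clone 1 and 0.0743 without clone 12). PPP1R15A (GADD34), which reverses phosphorylation of eIF2, was at 6.25 and 6.59 against 4.77, 4.81, 5.19 and 4.79, 2.90-fold higher (adjusted p = 0.00138), and passed in each of those fits. Of the 36 genes, 32 had a higher mean in BDD clones 1 and 12 than in the FL clones and 4 a lower one, and 24 were not called. ATF4 itself differed by 0.36, ASNS by 0.70 and CHAC1 by 1.26, and none of these passed the test, while ALDH18A1, a proline synthesis enzyme, was lower by 0.65. ATF4, ASNS, CHAC1 and ALDH18A1 were picked out after their values were seen. Without BDD clone 1, 5 genes of the list were called higher, and without BDD clone 12, 4.

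**Figure D3:**
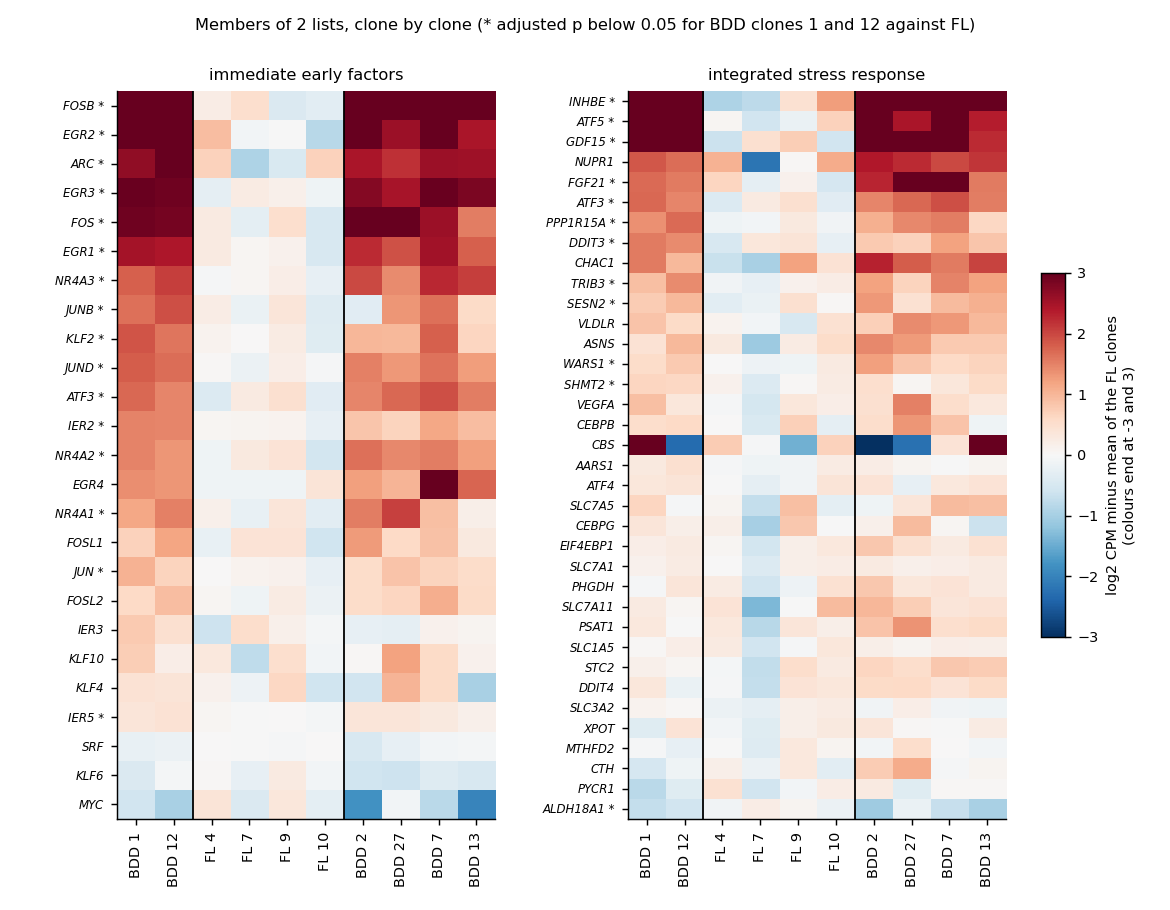
Rows are the measured members of the immediate early list and of the integrated stress response list, columns are clones, and colour is log2 CPM minus the mean of the 4 FL clones, with colours ending at -3 and 3. A star marks an adjusted p below 0.05 for BDD clones 1 and 12 against FL; 16 of 25 and 12 of 36 rows carry one, and the columns of the other BDD clones are shown beside them.

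CBS, an enzyme of cysteine synthesis in the same list, differed between the BDD clones themselves. It was at 6.61 in BDD clone 1 and 1.17 in BDD clone 12, with both libraries of each clone close (6.57 and 6.66, 1.39 and 0.95), and between 2.04 and 4.23 in the FL clones. The difference of 5.44 had an adjusted p of 0.319 in the comparison of the 2 clones. A near-identical copy of CBS shares its reads, so its level is uncertain, and it was picked out after its values were seen.

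Among the genes that handle factor VIII in the ER, HSPA5 was at 8.74 and 8.80 in BDD clones 1 and 12 and at 8.54, 9.00, 8.56 and 8.74 in the FL clones, a difference of 0.06 with a 95% interval half-width of 0.33 (adjusted p = 0.807). XBP1 differed by 0.07 (adjusted p = 0.769). The measured XBP1 value does not separate spliced from unspliced message. Of 29 ER chaperones, lectins and oxidoreductases, 3 were called higher and 9 lower, with a median of -0.30. PRDX4, a peroxidase of the ER that takes part in disulfide formation, was at 6.70 and 6.96 against 7.74, 7.79, 7.60 and 7.60, lower by 0.85 (adjusted p = 0.00347), and ERO1B, an ER oxidase, was at 4.41 and 4.48 against 3.39 to 3.75, higher by 0.85 (adjusted p = 0.0219). PRDX4 missed the threshold at 0.0607 without BDD clone 1, and ERO1B missed it without either BDD clone (0.125 and 0.150). None of the 29 was called without BDD clone 1, 1 was called lower without BDD clone 12, and 1 was higher and 2 lower without FL clone 9. After removal of trends on level, GC content, length of the transcript and genomic span from each clone, 3 were higher and 2 lower. In that fit XBP1 was called higher, by 0.52 (adjusted p = 0.0394), the only 1 of its 24 alternatives to call it. HSPA5 differed there by 0.335 (adjusted p = 0.149).

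Of 34 measured enzymes of N-linked glycosylation, 14 were called lower and none higher, with a median of -0.47. The list median was -0.43 and -0.41 in BDD clones 1 and 12, where single FL clones lay between -0.02 and 0.04. DDOST, a subunit of the oligosaccharyl transferase, was at 4.59 and 4.67 against 5.46, 5.41, 5.47 and 5.30, lower by 0.78 (adjusted p = 0.0085). OST4, another of its subunits, was at 5.60 and 4.93 against 6.34, 6.61, 6.56 and 6.02, lower by 1.12 (adjusted p = 0.00905). DDOST missed the threshold without either BDD clone (0.0843 and 0.0704), and OST4 without BDD clone 12 (0.118). OST4 was at 4.09 and 5.77 in libraries a and b of that clone, and with library b alone its difference was -0.70 (adjusted p = 0.0302). Of the 34, 1 was called without BDD clone 1, none without BDD clone 12, 7 without FL clone 9 and 7 with the per-clone trends removed.

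In ER to Golgi transport, 10 of 43 measured genes were called lower and 1 higher, with a median of -0.26, but 2 were called lower once the per-clone trends were removed, 2 without FL clone 9 and none without either BDD clone. That is 23.3% lower, where 9.06% of all genes tested were lower and 21.7% of those at 6 log2 CPM or above. LMAN1, the mannose lectin of the factor VIII cargo receptor, was at 7.83 and 7.92 in BDD clones 1 and 12 and at 8.17, 8.26, 8.28 and 8.12 in the FL clones. The clones did not overlap, and the difference of -0.33 missed the threshold (adjusted p = 0.0761). Its partner MCFD2 was at 5.93 and 5.45 against 5.90 to 6.21 and overlapped (difference -0.36, adjusted p = 0.159). SURF4, a cargo receptor of secreted proteins, differed by -0.39 (adjusted p = 0.0541), and FURIN, the protease that cuts factor VIII in the Golgi, by 0.46 (adjusted p = 0.0988). COPZ1, a coat subunit, was lower by 0.56 (adjusted p = 0.0179) and missed the threshold with 1 BDD clone (0.142 without clone 1 and 0.0867 without clone 12) and with the per-clone trends removed (-0.31, adjusted p = 0.12). In ER-associated degradation 1 of 25 genes was called higher and 2 lower, the higher being SEL1L, the scaffold of the HRD1 ligase, at 5.60 and 5.69 against 4.76, 4.16, 4.93 and 4.79 (adjusted p = 0.0145, and 0.102 and 0.125 without BDD clones 1 and 12). None of the 25 was called without either BDD clone.

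**Figure D4:**
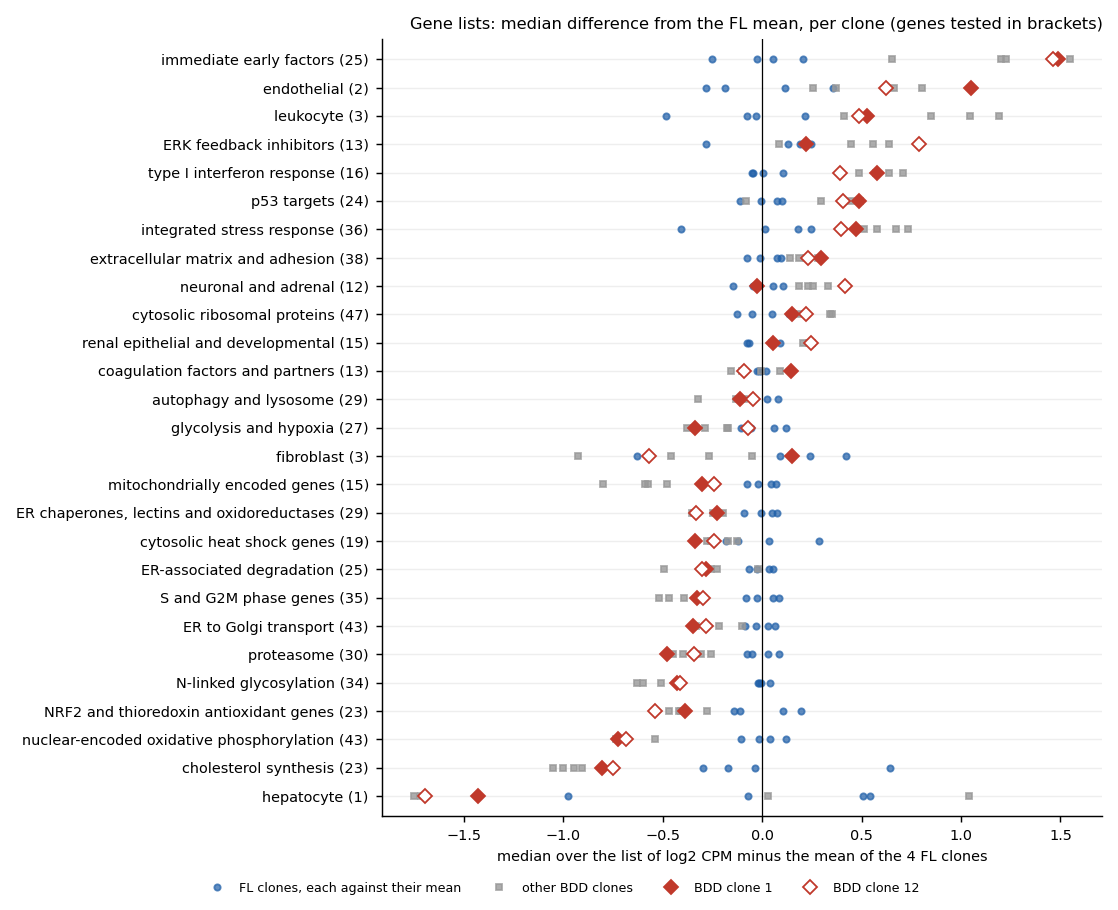
For each of 27 lists, symbols give the median over its measured genes of log2 CPM minus the mean of the 4 FL clones, for BDD clone 1 (filled diamonds), BDD clone 12 (open diamonds), single FL clones (blue) and the other BDD clones (grey). The immediate early list lies at 1.49 and 1.46 and the cholesterol list at -0.81 and -0.75 in BDD clones 1 and 12.

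Nuclear genes of oxidative phosphorylation were lower in the largest share of any list of 10 or more genes: 31 of 43 were called lower and none higher, with a median of -0.68, and every one of the 43 had a lower mean in the BDD clones. ATP5MC1, a subunit of the ATP synthase ring, was at 6.56 and 6.67 in BDD clones 1 and 12 and at 7.83, 7.95, 7.71 and 7.53 in the FL clones, lower by 1.14 (adjusted p = 0.00165). COX6C, a subunit of cytochrome oxidase, was at 8.00 and 7.78 against 9.06, 8.87, 9.13 and 8.83, lower by 1.08 (adjusted p = 0.00179). NDUFA4 and UQCRQ were lower by 0.94 and 1.21 (adjusted p = 0.0024 and 0.00204), and all 4 passed in each of the 6 fits without 1 clone. Of the 43, 7 were called without BDD clone 1, 8 without BDD clone 12 and 19 with the per-clone trends removed.

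Genes encoded in the mitochondrion itself had a median of -0.30. They took 7.59% and 7.99% of reads in BDD clones 1 and 12, and 9.24%, 9.44%, 9.33% and 8.77% in FL clones 4, 7, 9 and 10 (mean 9.20% ± 0.295, SD, n = 4 clones). The groups did not overlap, and the difference of -1.41 percentage points had p = 0.0667 in the exact two-sided permutation test, the smallest that 15 assignments allow. Of 15 genes measured, 3 were called lower, MT-ND6 by 1.19, MT-RNR1 by 0.87 and MT-ND4L by 0.53 (adjusted p = 0.00362, 0.0113 and 0.0202). All 3 missed the threshold without BDD clone 1 (0.0661, 0.113 and 0.165), and MT-RNR1 and MT-ND4L without BDD clone 12 as well (0.0974 and 0.0976). Mitochondrial tRNAs went both ways: MT-TL1 was at 5.26 and 4.84 against 1.99, 2.55, 2.48 and 2.29 (adjusted p = 0.000542), and MT-TQ at 1.13 and -0.39 against 3.26, 2.93, 3.49 and 2.89 (adjusted p = 0.0033). Strand is not given in the sources used here, so reads of a tRNA and of messages that overlap it cannot be told apart.

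Cholesterol synthesis was lower in 12 of 23 measured genes and higher in none, with a median of -0.82, the lowest of the lists of 10 or more genes. INSIG1, which holds the SREBP factors in the ER and is itself their target, was at 4.01 and 4.31 in BDD clones 1 and 12 and at 5.96, 6.49, 5.89 and 5.38 in the FL clones, lower by 1.77 (adjusted p = 0.00299). INSIG1 missed the threshold when BDD clone 1 was left out (0.056) and passed when BDD clone 12 was (0.0428). The list varied among the FL clones too, from -0.30 in clone 10 to 0.64 in clone 7. None of the 23 was called without BDD clone 1, 2 without BDD clone 12, 4 without FL clone 9 and 6 with the per-clone trends removed.

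Some glycolytic enzymes, proteasome subunits and antioxidant genes were called lower as well. LDHA, lactate dehydrogenase A, was at 6.73 and 6.89 in BDD clones 1 and 12 and at 7.95, 8.58, 8.26 and 7.89 in the FL clones, lower by 1.36 (adjusted p = 0.0024), and ALDOA by 1.02 (adjusted p = 0.00251). In that list of 27, 9 genes were called lower and 4 higher, among them ENO2 and SLC2A3. Of 30 proteasome genes 11 were called lower and none higher, led by PSMD14 at 5.27 and 4.84 against 6.10, 6.23, 6.27 and 5.98 (adjusted p = 0.00335, and 0.0598 without BDD clone 12). Of 23 antioxidant genes 9 were called lower and none higher, among them TALDO1 by 1.08 and TXN, thioredoxin, by 1.79 (adjusted p = 0.00152 and 0.00549). LDHA, ALDOA and TALDO1 passed without any 1 of the 6 clones, and TXN missed without either BDD clone (0.0533 and 0.0917). Libraries a and b of BDD clone 12 held TXN at 4.52 and 7.72, and with library b alone for that clone the difference was -0.99 (adjusted p = 0.0953). After removal of the per-clone trends, 9 glycolytic, 4 proteasome and 4 antioxidant genes were called lower. The same 3 lists had 3, 2 and 3 genes called lower without BDD clone 1, 3, 1 and 1 without BDD clone 12, and 6, 6 and 5 without FL clone 9. SLC2A3 was picked out after its values were seen.

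Of 35 genes of S and G2M phase 12 were called lower and 1 higher, with a median of -0.28. CCNB1, cyclin B1, was at 5.92 and 6.02 in BDD clones 1 and 12 and at 7.08, 6.84, 6.90 and 7.02 in the FL clones, lower by 0.99 (adjusted p = 0.00207). Of 24 p53 targets 8 were called higher and none lower, with a median of 0.45. CDKN1A, the cell cycle inhibitor p21, was at 7.21 and 6.94 against 6.08, 5.97, 5.81 and 5.99, 2.17-fold higher (adjusted p = 0.00184), while MDM2 and BAX differed by -0.23 and -0.83 without passing. CCNB1 and CDKN1A passed in each of the 6 fits without 1 clone. Without BDD clone 1, 2 cell cycle genes were called lower and 2 p53 targets higher, and without BDD clone 12, 4 and 3. MDM2 and BAX were picked out after their values were seen.

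Most genes of the remaining lists were not called. Of 16 interferon response genes 4 were higher, among them BST2 at 3.33 and 2.87 against 1.38, 0.68, 1.03 and 1.76 (adjusted p = 0.00945), and with either BDD clone left out none of the 16 was called. Of 19 heat shock genes 1 was called higher and 3 lower. The latter were HSPA4, HSPD1, which encodes a chaperonin of mitochondria and not of the cytosol, and HSPA1B, whose reads a near-identical copy shares. Of 47 ribosomal protein genes 2 were higher, RPL10 by 0.50 and RPS19 by 0.63 (adjusted p = 0.0296 and 0.0326), and none with either BDD clone left out. Extracellular matrix and adhesion genes were called higher in 8 of 38 and lower in 2. LAMB2, a laminin chain, was at 6.29 and 6.19 against 4.35, 4.59, 4.36 and 5.01, 3.17-fold higher (adjusted p = 0.00165), and CD44, a hyaluronan receptor, was lower by 0.99 (adjusted p = 0.00432). LAMB2 passed without any 1 clone, and CD44 missed without BDD clone 12 (0.0708). Of the 38, 1 was called higher and 1 lower without BDD clone 1, and 1 higher without BDD clone 12. Among autophagy and lysosome genes 3 of 29 were called higher and 5 lower, TFEB, a master regulator of lysosomal genes, being at 3.90 and 3.92 against 2.19, 2.41, 2.37 and 2.15 (adjusted p = 0.00335, and 0.0543 and 0.0598 without BDD clones 1 and 12).

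Some cell type markers also differed between the groups. Neuronal and adrenal markers, 12 of 22 measured, summed to 2490 CPM in BDD clone 1, 3240 in BDD clone 12 and 5860 to 6020 in the FL clones, where NEFM made up most of the sum. NEFM was at 10.24 and 10.65 in BDD clones 1 and 12 and at 12.05, 11.99, 12.05 and 12.08 in the FL clones, lower by 1.60 (adjusted p = 0.000542) and called without any 1 clone, while MAP2 and ENO2 of the same list were higher by 1.89 and 1.40 (adjusted p = 0.0242 and 0.0386). Neither MAP2 nor ENO2 passed without BDD clone 1 (0.192 and 0.126) or BDD clone 12 (0.118 and 0.266). Renal and developmental markers summed to 289 and 340 CPM against 283 to 290, so that BDD clone 1 lay within the FL range. Of the 15 measured, KRT8, KRT18 and CD24 were called higher and WT1 lower, and 11 were not called. KRT8, an epithelial keratin, was at 3.60 and 4.84 against 2.77, 1.80, 2.10 and 2.83 (adjusted p = 0.0144, and 0.178 without BDD clone 12). Endothelial, fibroblast, leukocyte and hepatocyte lists had 2 of 9, 3 of 9, 3 of 12 and 1 of 14 genes in the table, and the leukocyte genes summed to 8.95 and 13.4 CPM against 4.56 to 8.17. The part of these markers in the results above was not tested.

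Coagulation genes other than F8 showed few calls. Of 13 measured, 2 were called lower and none higher, with a median of 0.02. PROCR, the endothelial receptor of protein C, was at 4.46 and 4.42 against 5.24, 5.15, 5.34 and 4.94, lower by 0.73 (adjusted p = 0.0188), and did not pass without BDD clone 1 (0.109) or BDD clone 12 (0.125).

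The lowest differences of single genes were those of AGGF1, CTSF and AKAP6. AGGF1, which encodes an angiogenic factor and lies at chr5:77029251-77065234 (hg38), was nearly absent from BDD clones 1 and 12. The 4 libraries of BDD clones 1 and 12 held 6 of its reads in all, and each of the 8 FL libraries held 33 to 160. This amounts to 1.97% of the FL level (exact binomial 95% interval 0.72% to 4.31%, counting error only). The fitted difference was -4.48 (adjusted p = 0.001), which passed without any 1 clone. CTSF, a lysosomal cathepsin, had 13 reads in those 4 libraries and 72 to 130 in each FL library, 3.59% of the FL level (1.90% to 6.17%), and it passed without any 1 clone too (adjusted p = 0.000252 with all 6 clones). In the other BDD clones its reads ran from 0 to 89 per library. AKAP6, an anchor of protein kinase A, was at 2.28 and 1.22 against 7.22, 4.07, 4.22 and 7.26, so that FL clones 4 and 10 were well above FL clones 7 and 9, and its call (adjusted p = 0.0144) was lost without either BDD clone (0.0873 and 0.148).

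Next lowest by the naming rule came genes that include BOLA3, COPS7A and C1QBP. BOLA3, which helps insert iron-sulfur clusters in mitochondria, was at 4.38 and 3.85 against 6.45, 6.06, 6.74 and 6.01 (adjusted p = 0.000956), but its libraries a and b were at 2.56 and 5.13 in BDD clone 12. COPS7A, a subunit of the COP9 signalosome, was at 3.57 and 3.34 against 5.84, 5.06, 5.93 and 5.08 (adjusted p = 0.0021). Its libraries a and b were far apart too, at 4.37 and 2.77 in BDD clone 1 and at 2.225 and 4.46 in BDD clone 12. With library b alone for BDD clone 12 its adjusted p was 0.015. C1QBP, a mitochondrial matrix protein, was at 4.75 and 4.39 against 6.75, 5.97, 7.07 and 6.26 (adjusted p = 0.00251, and 0.0543 without BDD clone 12). Libraries a and b of BDD clone 12 held C1QBP at 2.75 and 6.03, and with library b alone for that clone the difference was -1.12 (adjusted p = 0.0572) instead of -1.94. BOLA3 and COPS7A passed without any 1 clone. Among the highest, SCRG1, first known from scrapie-infected brain, was at 5.01 and 5.33 against 1.81, 2.30, 2.12 and 1.79, 8.99-fold higher (adjusted p = 0.00036) and called without any 1 clone. TACR2, a tachykinin receptor, was 7.27-fold higher (adjusted p = 0.0037) and missed without either BDD clone (0.069 and 0.055).

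Set against the other 4 BDD clones, which share the genotype label but not the F8 level, BDD clones 1 and 12 differed in 6 of 15776 genes (0.038%), 1 higher (0.00634%) and 5 lower (0.0317%). At an unadjusted p below 0.05 the count was 1443 (9.15%), and the median half-width of the 95% interval of a difference was 0.57. The count of 6 became 30 without FL clone 7, 3 without BDD clone 1 and 2 without BDD clone 12, and it was 2, 2 and 3 without BDD clone 13, BDD clone 7 and FL clone 10. Of the 6 genes, AGGF1 was also called against FL. Both sets of BDD clones were compared with the same 4 FL clones, so their differences from FL are given side by side only. FOSB differed from FL by 4.34 in BDD clones 1 and 12 and by 4.00 in the other BDD clones, INHBE by 3.86 and 4.46, ATF5 by 3.59 and 2.83 and NEFM by -1.60 and -1.88. The list medians were 1.41 and 1.11 for immediate early genes, -0.68 and -0.66 for oxidative phosphorylation and -0.82 and -0.99 for cholesterol synthesis. They lay further apart for mitochondrially encoded genes, at -0.30 and -0.60. Mitochondrial genes took 7.59% and 7.99% of reads in BDD clones 1 and 12 and 6.01% to 7.04% in the other BDD clones, a difference that was not tested.

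AGGF1 stood at -0.35 and -1.13 in BDD clones 1 and 12 and at 4.37, 3.49, 4.14 and 4.04 in BDD clones 2, 27, 7 and 13, a difference of -4.75 (adjusted p = 0.00034), called in each of the 10 fits without 1 clone but not by limma-voom on the recovered reads (adjusted p = 0.216). LINC01655, a long noncoding RNA on chromosome 1, had no read in any library of BDD clones 1 and 12 or of the FL clones, and 15 to 45 reads in each library of the other BDD clones. The line titled HEK 28, which carries the full-length label, had 32 and 23 reads of it. Over the 4 libraries of BDD clones 1 and 12, the exact 95% interval of its level reached up to 0.175 CPM (counting error only). The other BDD clones held 6.155 CPM. DDR2, a collagen receptor, was at 2.48 and 2.65 in BDD clones 1 and 12, at 3.86 to 4.45 in the other BDD clones and at 1.53 to 1.76 in the FL clones, with the HEK 28 line at 3.88. The 2 sets of BDD clones differed in it by -1.62 (adjusted p = 0.0443). FRMD8, which stabilises the rhomboid protein complex that releases membrane growth factors, was at 6.48 and 6.53 against 5.30 to 5.57 in the other BDD clones (adjusted p = 0.0282) and 6.14 to 6.50 in the FL clones. DDR2, FRMD8, TMEM267 and MARCHF6 were called in 2, 5, 3 and 2 of the 10 fits without 1 clone.

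TMEM267 and MARCHF6, the other 2, both lie on chromosome 5. MARCHF6, an ubiquitin ligase of the ER, was at 6.88 and 7.11 in BDD clones 1 and 12, at 8.13 to 8.16 in the other BDD clones and at 6.97, 7.76, 7.54 and 7.20 in FL clones 4, 7, 9 and 10. Their neighbours were therefore summarised in blocks of 20 genes of at least 3 log2 CPM, a description chosen after the data were seen. Over the first 4 blocks of chromosome 5 (80 genes, positions 196871 to 54310582 in hg38), the median deviation from the mean of the 10 BDD and FL clones was -0.61 in BDD clone 1, -0.49 in BDD clone 12, -0.50 in FL clone 4 and -0.42 in FL clone 10. It was 0.42 and 0.11 in FL clones 7 and 9 and 0.25 to 0.47 in the other BDD clones. Over the remaining 369 genes of the chromosome no clone's median was beyond 0.08. Of the 80 genes 16 (20.0%) were called lower against FL and 2 higher, and of the other 369 genes 55 (14.9%) were lower and 16 higher. AGGF1 lies outside this stretch.

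**Figure D5:**
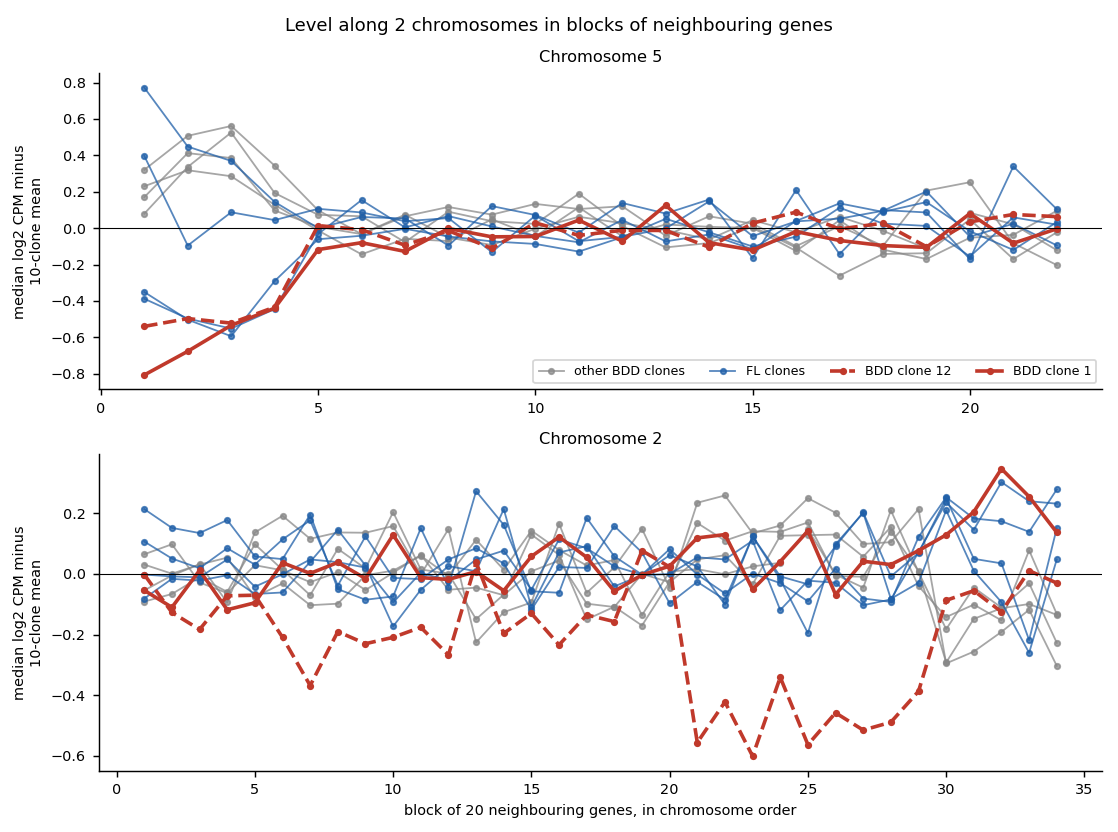
Lines give, for each clone, the median deviation in log2 CPM from the mean of the 10 BDD and FL clones in successive blocks of 20 neighbouring genes along chromosome 5 (top) and chromosome 2 (bottom). BDD clones 1 and 12 (red) lie low with 2 FL clones (blue) over the first 4 blocks of chromosome 5, and BDD clone 12 (dashed) lies low alone in blocks 21 to 29 of chromosome 2.

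BDD clones 1 and 12 differed from each other in 29 of 15776 genes (0.184%), 19 higher (0.12%) and 10 lower (0.0634%) in clone 1, in a test whose error is how far the libraries of 1 clone lie apart. At an unadjusted p below 0.05 the count was 1595 (10.1%). The count was 0 without library a of BDD clone 1 (1100 at an unadjusted p below 0.05), 1 without its library b, and 16 and 260 without libraries a and b of BDD clone 12. HAS2, which makes hyaluronan, was at 0.63 in BDD clone 1 and 4.07 in BDD clone 12 (adjusted p = 0.0171), with FL clones from 0.66 to 3.68. STMN2, a neuronal microtubule regulator, was at 4.35 and 6.80 (adjusted p = 0.0106), with FL clones from 2.71 to 6.42. PRMT1, the main arginine methyltransferase, was at 5.83 and 7.20 (adjusted p = 0.0344), with FL clones from 6.01 to 7.19. Each of these 3 was lost in some of the 4 fits without 1 library, with the largest adjusted p at 0.228, 0.101 and 0.36. GPC6, a glypican, was at 7.48 and 6.53 (adjusted p = 0.0147, up to 0.196 without 1 library).

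Of the 19 genes higher in BDD clone 1, 14 span over 200 kb of genome, where 9.33% of all genes tested do. The 446 genes of that span and of at least 5 log2 CPM had a median difference of 0.29 between BDD clones 1 and 12. By library, relative to the 12 libraries, their median was 0.28 and 0.32 in BDD clone 1, -0.00 and -0.03 in BDD clone 12 and -0.19 to 0.03 in the FL libraries, so that BDD clone 1 lay above the rest in both libraries. Of the 29 genes, 9 lie on chromosome 2, which holds 682 of the 9812 genes used in the blocks. Blocks 21 to 29 of that chromosome (180 genes, positions 135906677 to 216082955 in hg38) were picked out after the block values were seen. Their values follow from that choice and are a description, not a test. The median deviation there was -0.47 in BDD clone 12, against 0.03 in BDD clone 1 and -0.02 to 0.03 in the FL clones. In 170 of the 180 genes BDD clone 1 was higher than BDD clone 12. Over the whole chromosome BDD clone 12 was the lowest clone or line in 22 of 34 blocks, and at -0.3 or below in 10. Of the called genes, 4 lie in blocks 21 to 29, PKP4 and the named genes PGAP1, ZNF385B and LINC01876. The latter 3 were at 5.18 and 3.81, 4.92 and 3.61, and 4.56 and 3.45 in BDD clones 1 and 12. Each of the 3 had an adjusted p above 0.2 in some fit without 1 library (up to 0.393, 0.295 and 0.31). PSMD14, HSPD1 and MAP2, named above against FL, lie in the same stretch. HSPD1 was at 8.14 in BDD clone 1 and 7.66 in BDD clone 12.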

How the data were processed

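Gene expression was measured by RNA sequencing (an Illumina HiSeq instrument) of total RNA in 22 libraries. The authors' deposited table gives log2 CPM per gene and library. FastQC, cutadapt, TopHat2, Bowtie and build hg38 are named in the submitters' processing notes, while the read counter and its strand setting are not stated there. Whole reads were recovered from the log2 values in 100% of genes (tolerance 0.01), with a prior of about 1.99 reads per library in the deposited log2 values.

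Libraries a and b were averaged per clone. Genes reaching 1 CPM in 2 or more of 10 clones, BDD or FL (15776 of 15797), were tested with limma-trend (limma 3.58.1, R 4.3.3), Benjamini-Hochberg adjusted over all genes with a threshold of 0.05. BDD clones 1 and 12 were fitted with the FL clones alone, with the other BDD clones in a fit of 3 groups, and against each other on the 12 libraries. Values were summarised in Python 3.11.15. The fits were tested on simulated data. Symbols missing from 1272 rows came from GENCODE 29, and genes of the deposited table were matched by Ensembl ID.

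The clones and the gene lists were chosen with earlier results of these data known. Genes are named by this rule: F8 and 7 genes of its handling; the 12 highest and 12 lowest called differences from FL whose mean was 2 log2 CPM or higher and whose clones did not overlap; 8 and 8 against the other BDD clones and 6 and 6 between BDD clones 1 and 12 by the same conditions; and up to 4 called genes of smallest p per list. Scaling, filter, prior, model, threshold, unit of analysis, clones and libraries left out, groups in the fit and covariates were varied. Using library b alone for BDD clone 12, library a alone for BDD clone 2, and leaving out single libraries between BDD clones 1 and 12 were chosen after seeing the data. Letters a and b did not pair libraries across clones: over 11660 genes, the a minus b differences of the 6 clones correlated at -0.42 to 0.36 in 15 pairs (Pearson's r, across genes). Values of a few members of the lists are not reported here.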

Additional observations from a re-analysis of the deposited data

Results flagged for a closer look

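Among the 129 named genes, 6 had 1 FL clone far from the other 3, by Dixon's criterion for 4 values. Chance meets it in about 1 group in 20, and the count of 6 is near that rate. The rate is for independent groups, while these genes share the same 4 clones and most of the 6 point to FL clone 7. No conclusion is drawn from the count. FL clone 7 was the clone apart in ALG14 (4.61), SAR1A (6.81), UBE2J2 (7.32), UQCRQ (9.42) and MSMO1 (6.29), in log2 CPM. FL clone 9 was the clone apart in PPP1R15A (5.19).

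The 2 sets of BDD clones differed in their distance from the same FL clones in 6 genes, by the test of that difference: FRMD8 by 1.05, MARCHF6 by -1.15, TMEM267 by -1.51, DDR2 by -1.62, AGGF1 by -4.75 and LINC01655 by -4.07, as log2 differences of BDD clones 1 and 12 minus the other BDD clones. The value of LINC01655 depends on the prior in the deposited values, since BDD clones 1 and 12 had no read of it.

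F8 stood at 8.90 log2 CPM in the line titled HEK 28, which was in no group of the main tests, against 7.11 to 7.87 in the FL clones.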

How the results depend on the processing

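No named gene changed direction with a call under any alternative run. Against FL, the count of 2595 became 669 at an adjusted p below 0.01, 1190 with a 2-fold minimum, 4625 with each library its own sample, 4331 when the letter was added as a replicate block, 667 and 1085 with library a or b only, 4001 with F8 as a covariate, and 263 to 3316 with single clones left out. Of the 105 named genes called, 37 were called without BDD clone 1 and 37 without BDD clone 12. Against the other BDD clones, the count of 6 became 3 with voom, 2 below 0.01, 302 with each library its own sample, 264 when the letter was added as a replicate block, 135 with the clone as a random block, 2 with library b only, 2 with library b alone for BDD clone 12 and 2 to 30 with single clones left out. Between BDD clones 1 and 12, the count of 29 became 46 with library totals, 17 with a mean of at least 2 log2 CPM, 0 below 0.01 (1595 at an unadjusted p below 0.05, and 31 called by voom at 0.05), 14 with a 2-fold minimum, 2 with their 4 libraries only and 0 to 260 with single libraries left out. The letters do not pair libraries, so the block is shown only for completeness. With 2 BDD clones, the median half-width of a 95% interval against FL, before adjustment, was 0.546. The adjusted threshold asked for a larger difference than this of a typical gene. Genes of small spread were called at less, such as RPL10 at 0.50. Other scalings moved the median gene by 0.0202 and 0.0463.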
